A study of Mus musculus with 4 samples.

Results

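Transcripts of the proteins that bring the CCR4-NOT deadenylase to messenger RNAs were followed in mouse embryonic stem cells (ESCs) in which Cnot1, the scaffold subunit of that complex, had been knocked down. The genes were taken by symbol, with no threshold on a measured value, although earlier results of these data were known when the set was drawn up. They are the TTP family members Zfp36, Zfp36l1 and Zfp36l2, the BTG/TOB family members Btg1, Btg2, Btg3, Tob1 and Tob2, and the Pumilio gene Pum2. All 9 were found among the 50559 genes listed, and all 9 passed the filter on low counts that left 18144 genes for testing.

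The cells were of the E14 line, a single established mouse ESC line grown without feeders on gelatin in medium with serum replacement and leukemia inhibitory factor. The control group (siNT) received a non-targeting siRNA and the other group (siCnot1) an siRNA against Cnot1, each at 150 nM, and RNA was taken 48 h after the first transfection. Each group holds 2 libraries of polyadenylated RNA, and both groups share the line, the medium and the transfection. According to the study's methods its ESCs carry a transgene in which the MERVL promoter drives tdTomato, which the labels of these libraries do not mention. A transient knockdown leaves part of the transcript in place, and the cells of a dish may differ in how much they lost.

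CCR4-NOT shortens the poly(A) tail of cytoplasmic mRNAs, which is usually the first step of their decay, and CNOT1 is the scaffold that holds its nucleases and several adaptor-binding surfaces. The complex finds particular mRNAs through adaptor proteins. TTP family proteins bind AU-rich elements in 3′ untranslated regions (3′ UTRs) through tandem zinc fingers and contact CNOT1 with a short C-terminal motif. BTG and TOB proteins contact the nucleases CNOT7 and CNOT8 through their conserved N-terminal domain, and Pumilio proteins bind a UGUA-containing element and recruit the complex to it. Several adaptor mRNAs are short-lived themselves and hold such elements in their own 3′ UTRs.

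The sequences below are the elements read by the TTP and Pumilio proteins at places in the recruiters' own 3′ UTRs, and they are shown because they place a member's mRNA among the possible clients of the family it belongs to. The longest annotated 3′ UTR of each member (GENCODE M21, build GRCm38, sense strand only, joined by symbol) was searched for the TTP nonamer TTATTTATT, the Pumilio element TGTANATA and the AU pentamer ATTTA, of which the nonamer holds 1 copy. Each site stands in capitals with 10 bases of flank on either side. The nonamer occurred once in each of the 3 TTP family mRNAs:
Zfp36, chr7:28376951-28376979, minus strand, bases 589 to 597 of a 3′ UTR of 774 bases: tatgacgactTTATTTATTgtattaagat
Zfp36l1, chr12:80108167-80108195, minus strand, bases 1404 to 1412 of 1835: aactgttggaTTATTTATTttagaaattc
Zfp36l2, chr17:84184914-84184942, minus strand, bases 821 to 829 of 1822: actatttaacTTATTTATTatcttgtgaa

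None of the other 6 members held the nonamer in its 3′ UTR. Among 3′ UTRs of tested genes whose length lay within 20% of that of the member, 4.28% held at least 1 nonamer at the length of Zfp36, 8.95% at that of Zfp36l1 and 8.95% at that of Zfp36l2. Pum2 was not the only member to hold the Pumilio element, but matches in other members are not reported here. In Pum2 it occurred at 2 places:
Pum2, chr12:8750155-8750182, plus strand, bases 445 to 452 of 2861: tttatagagaTGTATATAgaattatagt
Pum2, chr12:8750408-8750435, plus strand, bases 698 to 705 of 2861: tgtacagaatTGTATATActtataattg

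Of 3′ UTRs of similar length, 13.5% held at least 2 Pumilio elements at the length of Pum2. The shorter pentamer was found in all 9 members, most often in Btg1 with 11 copies, Pum2 with 10 and Zfp36l1 with 9, against medians of 6, 4 and 3 in 3′ UTRs of similar length. At least as many copies were held by 20.9%, 12.3% and 4.47% of these. Btg3 had 4 copies against a median of 0, and 2.18% of 3′ UTRs of similar length held at least as many. A match is a run of letters in an annotated transcript, and binding was not measured here.

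The libraries held 32135824 to 32557440 counts assigned to genes, so that 3 counts correspond to 0.0921 to 0.0934 CPM (counts scaled to the library's size). Correlations of log2 CPM across genes were 0.988 within siNT, 0.989 within siCnot1 and 0.976 to 0.977 between the groups. Cnot1 itself was at 912 and 985 normalized CPM in siNT and at 185 and 192 in siCnot1, which left 19.8% of the control level (log2 fold change −2.33, adjusted p = 2.37e-18 by edgeR's quasi-likelihood test). All 8 ESC marker genes were detected, with summed levels of 6574 and 6252 CPM in siNT and 5641 and 5832 in siCnot1. Of the 8, 6 were lower in siCnot1 (adjusted p under 0.05 by edgeR) with library scaling by TMM and 3 by library totals. Over all 18144 tested genes, 15.0% were called higher and 14.7% lower by TMM. By library totals 3989 of them were higher and 1567 lower. Summed fibroblast markers stood at 16.4 and 19.5 CPM in siNT against 30.3 and 25.9 in siCnot1, where 2 of the 7 (Col3a1 and Dcn) were at 0 in every library and Lum reached at most 2 counts. Summed primitive endoderm markers (6 of 6 detected) stood at 14.3 and 12.2 against 23.9 and 22.8 CPM, and summed trophoblast markers (7 of 7 detected) at 93.0 and 95.9 against 78.9 and 72.0. Of the 6 primitive endoderm genes tested, 2 were called higher and 2 had a log2 fold change below 0. Of the 6 trophoblast genes tested, 3 were called lower and 2 had a log2 fold change above 0. Of the 4 fibroblast genes tested, 2 were called higher and all 4 had a log2 fold change above 0. The part of these markers in the results below was not tested. In bulk RNA a change in the share of cells that hold a transcript and a change in its level per cell cannot be told apart.

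Of the 9 recruiters, 2 rose (Btg1 and Btg2), 3 fell (Zfp36, Zfp36l1 and Zfp36l2) and 4 did not pass the test (Btg3, Tob1, Tob2 and Pum2) at an adjusted p under 0.05. Over all tested genes 15.0% were called higher and 14.7% lower. The median log2 fold change of the 9 was −0.08 and that of all tested genes was 0.01. Changes of the members ran from −0.90 to 0.60, while the central 90% of all genes lay between −0.71 and 1.25. The study's thresholds were an unadjusted p of at most 0.05 and a log2 change of at least 1 in either direction, with DESeq2. Applied here to the edgeR fit, they called 6.18% of genes higher, 1.80% lower and 0 of the 9 recruiters. By edgeR, DESeq2 and limma-voom alike, 5 of the 9 had an unadjusted p of at most 0.05, and by none of these tools did a recruiter reach the fold required.

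**Figure D1:**
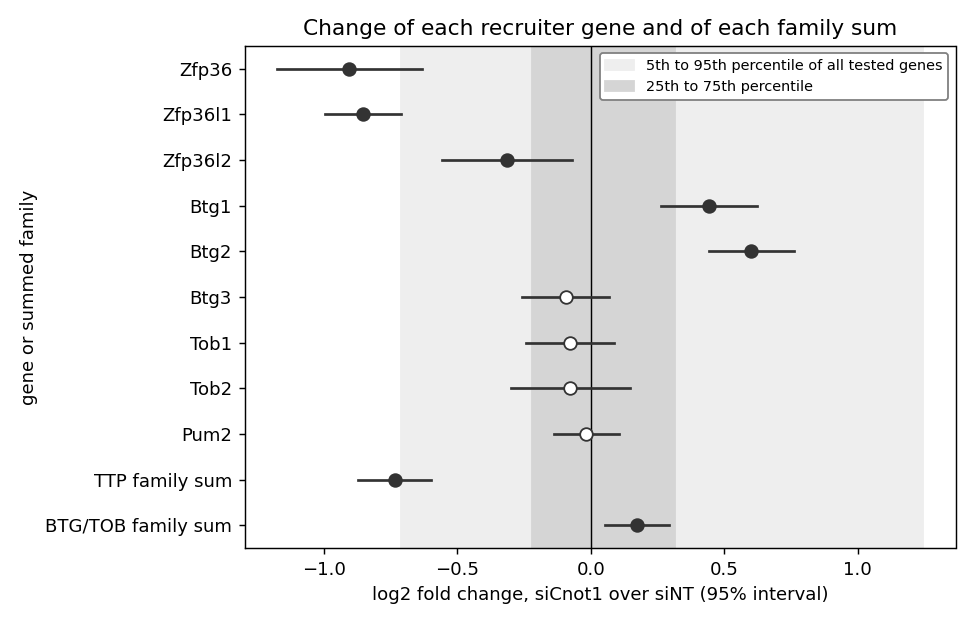
Log2 fold change (siCnot1 minus siNT) of each recruiter and of the TTP and BTG/TOB family sums, with 95% confidence intervals from the edgeR fit over 18144 genes with filled points at an adjusted p under 0.05, and with bands for the central 90% and the 25th to 75th percentile of all tested genes. Zfp36 at −0.90 and Zfp36l1 at −0.85 lie below that band, Btg1 at 0.44 and Btg2 at 0.60 lie above 0 within it, and the intervals of Btg3, Tob1, Tob2 and Pum2 hold 0.

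The TTP family was lower in its sum, while the fall of Zfp36l2 was called in only 5 of 12 alternative settings. Levels are relative to the polyadenylated RNA of each library, so a shift shared by most genes would not be seen. Zfp36, the gene of tristetraprolin, is an immediate-early gene best known for limiting cytokine mRNAs in immune cells. It lies on chromosome 7 from 28076209 to 28078653 on the minus strand in 2 exon blocks, where gene positions here and below are those of the deposited table, whose build appears to be GRCm39 but was not settled. It stood at 16.3 and 15.9 normalized CPM in siNT, against 8.77 and 8.39 CPM in siCnot1. Both knockdown libraries thus sat well below both controls, and the replicates of each group lay close together. The means of 16.1 ± 0.266 and 8.58 ± 0.268 CPM (SD, n = 2) gave 53.4% of the control level. The log2 fold change was −0.90 (SE 0.131, 95% interval −1.18 to −0.63, adjusted p = 1.35e-05 by edgeR). The gene lies within the span of Paf1 on the opposite strand, but shares 0 exon bases with it. No other member overlaps a listed gene.

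Zfp36l1, a paralog known for its part in development and in the decay of mRNAs of differentiation regulators, had the highest level per length of the 3. It lies on chromosome 12 from 80154534 to 80159787 on the minus strand in 2 exon blocks. Levels were 112 and 125 CPM in siNT and 65.2 and 66.0 CPM in siCnot1. The groups did not overlap, and the gap between them exceeded the distance between the siNT libraries. The means were 119 ± 9.03 and 65.6 ± 0.554 CPM (SD, n = 2), or 55.3% of control. Its log2 fold change of −0.85 (SE 0.069, 95% interval −0.996 to −0.71) had an adjusted p of 4.19e-09 by edgeR, the smallest among the recruiters and rank 55 of all genes tested. 

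Zfp36l2, known for its part in oocyte maturation and blood cell development, was the least certain of the 3. It lies on chromosome 17 from 84491352 to 84495375 on the minus strand in 2 exon blocks. It measured 31.96 and 33.6 CPM in siNT and 22.2 and 30.5 CPM in siCnot1. Only the first knockdown library was far below the controls, while the second was just under them, so that the groups did not overlap by a small margin. The means were 32.8 ± 1.18 and 26.4 ± 5.93 CPM (SD, n = 2). The log2 fold change was −0.32 (SE 0.118, 95% interval −0.56 to −0.07, adjusted p = 0.0460 by edgeR). Without siCnot1 replicate 1 it was −0.11 (adjusted p = 0.624), without siNT replicate 1 −0.36 (adjusted p = 0.303) and without siNT replicate 2 −0.28 (adjusted p = 0.385) by edgeR. Without siCnot1 replicate 2 it was −0.57 (adjusted p = 0.0158). The call thus needed each of 3 libraries, and the fold moved most with the 2 siCnot1 libraries. DESeq2 gave −0.32 with an adjusted p of 0.0886.

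**Figure D2:**
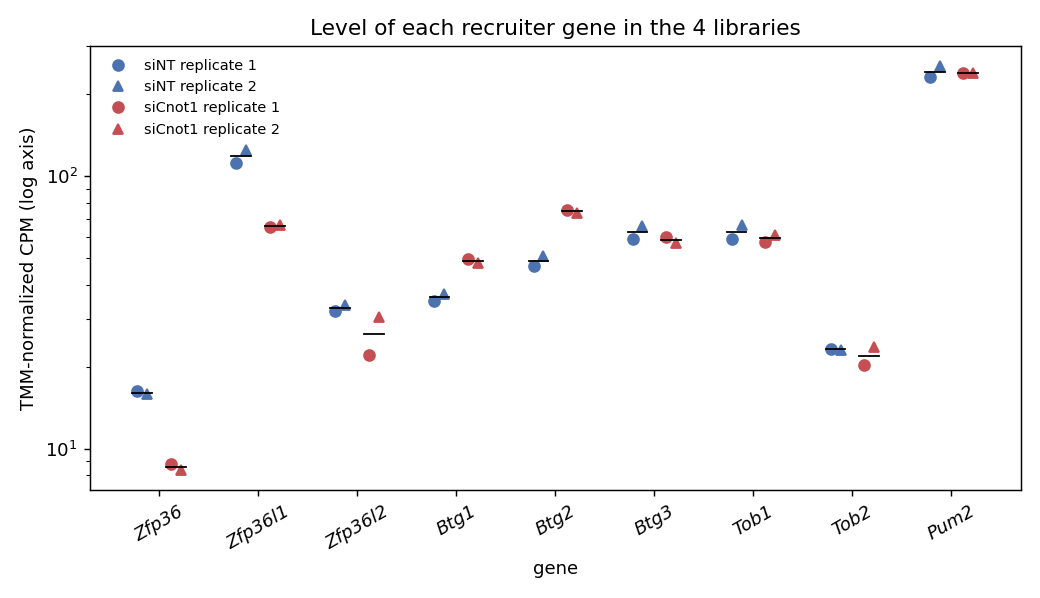
Normalized CPM (log axis) of each recruiter in each of the 2 siNT and 2 siCnot1 libraries, 1 point per library. Zfp36, Zfp36l1, Btg1 and Btg2 separate by group, Zfp36l2 does so by the gap between 30.5 and 31.96 CPM, and the libraries of the other 4 genes interleave. Here and in the text, 2 against 2 libraries can separate without a call, as those of Cnot3 and Trp53 did. The share of all tested genes that separate was not counted.

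Summed over the 3 genes, TTP family transcripts were at 160 and 174 CPM in siNT and at 96.2 and 105 CPM in siCnot1. The sum was lower in both knockdown libraries, at 60.1% of control (167 ± 9.95 against 101 ± 6.21 CPM, SD, n = 2). On the log2 scale the sum changed by −0.74 (SE 0.0654, 95% interval −0.87 to −0.60, adjusted p = 1.65e-08 by edgeR). Per length, in RPKM (normalized CPM over the listed exon length in kilobases), Zfp36l1 stood at 37.6 and 41.9 in siNT, while Zfp36 stood at 9.21 and 8.99 and Zfp36l2 at 9.03 and 9.51. Zfp36l1 thus made up 67.3% and 69.4% of the family's level per length in siNT and 66.1% and 62.3% in siCnot1. Zfp36l2 held 16.2% and 15.7% in siNT, against 18.9% and 24.3% in siCnot1, above the controls in both knockdown libraries. The share of Zfp36 was 16.5% and 14.9% against 15.0% and 13.4%, where the groups overlapped. Zfp36l3, a further family member, had 4 and 10 counts in siNT and 4 and 8 in siCnot1 and was not tested.

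**Figure D3:**
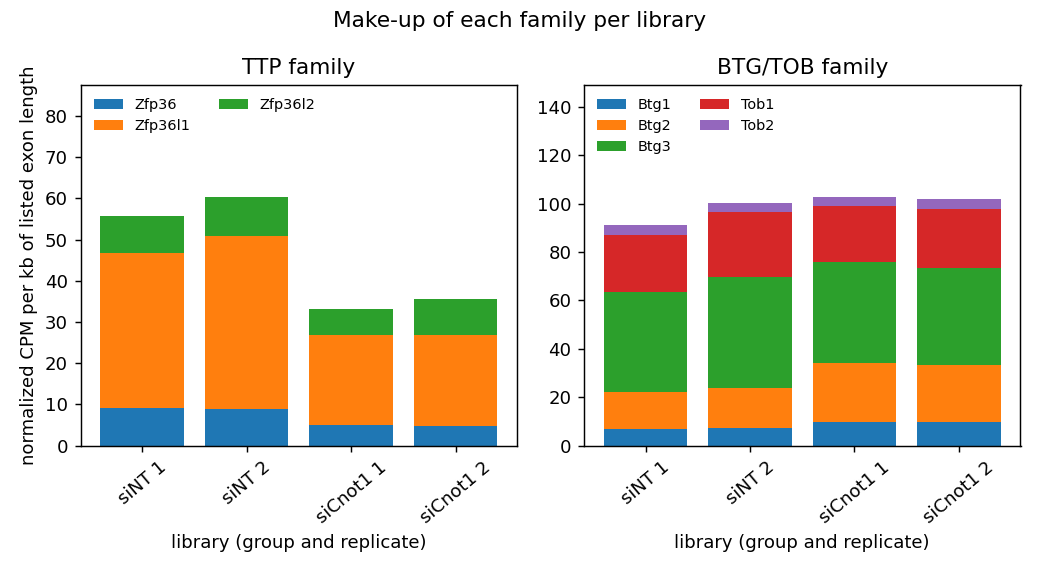
Level per length (normalized CPM per kilobase of listed exon length) of each gene, stacked within its family, with 1 bar per library. Zfp36l1 holds 62.3% to 69.4% of the TTP family in all 4 libraries, and the share of Btg2 in the BTG/TOB family is 16.5% and 16.7% in siNT and 23.4% and 23.7% in siCnot1.

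In the BTG/TOB family, Btg1 and Btg2 rose and the other 3 genes did not pass the test. Btg2 is an antiproliferative gene induced by growth factors and by p53, and it lies on chromosome 1 from 134002603 to 134006893 on the minus strand in 2 exon blocks. Its levels were 47.0 and 51.1 CPM in siNT and 75.2 and 73.6 CPM in siCnot1. Both knockdown libraries were above both controls, by several times the distance between replicates. The means were 49.1 ± 2.93 and 74.4 ± 1.13 CPM (SD, n = 2), or 152% of control. The log2 fold change was 0.60 (SE 0.0768, 95% interval 0.44 to 0.76, adjusted p = 2.72e-06 by edgeR), the largest rise among the 9.

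Btg1, the closest paralog of Btg2 and a gene known for keeping lymphocytes quiescent, rose less. It lies on chromosome 10 from 96452863 to 96458675 on the plus strand in 2 exon blocks. Levels were 34.9 and 37.0 CPM in siNT and 49.8 and 48.04 CPM in siCnot1. The groups did not overlap. The means of 36.0 ± 1.44 and 48.9 ± 1.27 CPM (SD, n = 2) gave 136% of control. Its log2 fold change was 0.44 (SE 0.087, 95% interval 0.26 to 0.62, adjusted p = 4.09e-04 by edgeR). Without siNT replicate 1 it was 0.40 with an adjusted p of 0.0543, and in the 11 other settings tried it passed the test.

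Btg3, a family member with a longer C-terminal part, lies on chromosome 16 from 78156748 to 78174069 on the minus strand in 6 exon blocks. It measured 58.9 and 65.6 CPM in siNT and 59.7 and 57.0 CPM in siCnot1. One knockdown library lay between the controls. Its log2 fold change was −0.09 (SE 0.0791, 95% interval −0.26 to 0.07, adjusted p = 0.412 by edgeR).

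Tob1 and Tob2 encode the larger members of the family, which also bind the poly(A)-binding protein and so connect the deadenylase to the tail. Tob1 (chromosome 11, 94100668 to 94106321, plus strand, 3 exon blocks) was at 59.0 and 66.0 CPM in siNT and at 57.6 and 60.8 CPM in siCnot1. Tob2 (chromosome 15, 81732471 to 81744742, minus strand, 4 exon blocks) was at 23.3 and 23.0 CPM in siNT and at 20.3 and 23.6 CPM in siCnot1. In both genes the groups overlapped. Tob1 had a log2 fold change of −0.08 (95% interval −0.24 to 0.09, adjusted p = 0.505 by edgeR). That of Tob2 was −0.08 (95% interval −0.30 to 0.15, adjusted p = 0.647 by edgeR). These intervals leave room for a fall of Tob2 as large as −0.30.

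The summed BTG/TOB transcripts were at 223 and 243 CPM in siNT and at 263 in each siCnot1 library. The knockdown libraries lay above both controls, at 113% of the control mean (233 ± 13.9 against 263 ± 0.316 CPM, SD, n = 2). On the log2 scale the sum changed by 0.17 (SE 0.0581, 95% interval 0.05 to 0.29, adjusted p = 0.0256 by edgeR). This call was lost when any 1 of the 4 libraries was left out, with values of 0.11 (adjusted p = 0.259) without siNT replicate 1 and 0.23 (adjusted p = 0.0566) without siNT replicate 2. Without siCnot1 replicate 1 it was 0.17 (adjusted p = 0.177), and without siCnot1 replicate 2 it was also 0.17 (adjusted p = 0.184).

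Per length, Btg3 was the highest of the family in siNT at 41.2 and 45.9 RPKM, followed by Tob1 at 23.7 and 26.5, Btg2 at 15.2 and 16.6, Btg1 at 6.97 and 7.38 and Tob2 at 4.13 and 4.07. No neighbours in that order overlapped between their 2 control libraries. In siCnot1 Btg2 measured 24.4 and 23.9 RPKM and Tob1 23.1 and 24.4, so their order per length could no longer be separated. The share of Btg2 in the family went from 16.7% and 16.5% to 23.7% and 23.4%, and that of Btg1 from 7.64% and 7.35% to 9.68% and 9.41%. The shares of Btg3 went from 45.2% and 45.7% to 40.6% and 39.1%. Btg4, the paralog of the late oocyte, had 0 counts in all 4 libraries, which allows up to 0.0934 CPM for counting error alone.

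Pum2 lies on chromosome 12 from 8724092 to 8802583 on the plus strand in 27 exon blocks. Its protein binds UGUA elements in 3′ UTRs. It was measured at 231 and 254 CPM in siNT and 239 and 240 CPM in siCnot1. Both knockdown libraries lay between the controls. Its change on the log2 scale was −0.02 (SE 0.059, 95% interval −0.14 to 0.11, adjusted p = 0.871 by edgeR). Per length it stood at 13.4 and 14.7 RPKM in siNT and at 13.9 in each siCnot1 library, but its listed length of 17227 bases joins all annotated isoforms, which lowers this value.

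**Figure D4:**
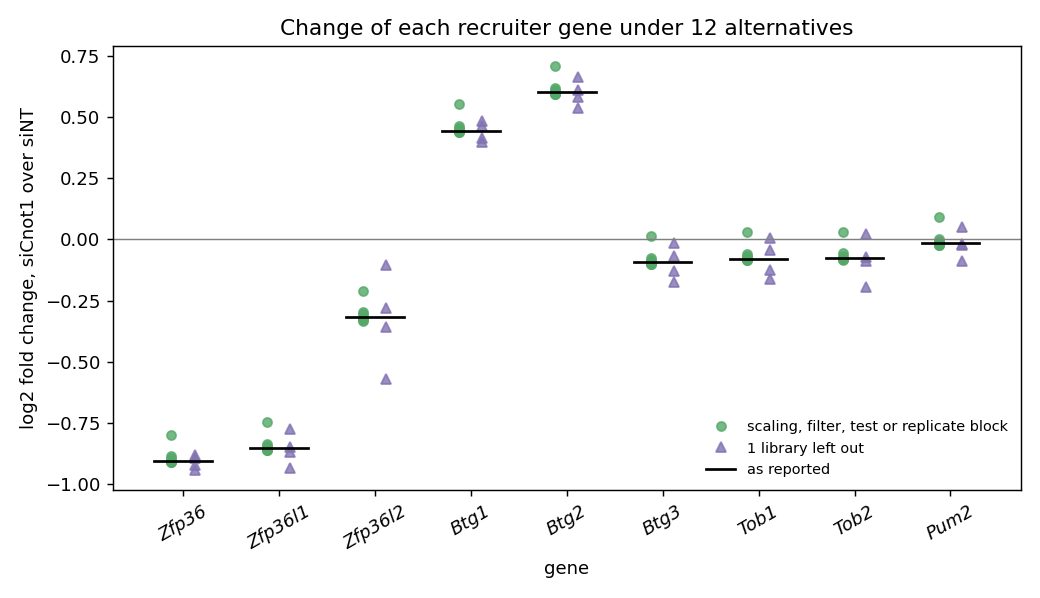
Log2 fold change of each recruiter as reported (black line) and under 12 alternatives, with circles for other scalings, filters, tests or the replicate block and triangles for fits without 1 library. The points of Zfp36, Zfp36l1, Btg1 and Btg2 stay far from 0, those of Zfp36l2 run from −0.57 to −0.11, and those of the other 4 genes lie on both sides of 0. The call held in 12 of 12 alternatives for Zfp36, Zfp36l1 and Btg2, in 11 for Btg1 and in 5 for Zfp36l2.

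When libraries were scaled by their totals instead of by TMM, the median over all genes moved from 0.01 to 0.12 and the split of calls moved from 50.5% higher to 71.8% higher. The directions of the 5 called recruiters held under that scaling, with −0.80 for Zfp36, −0.75 for Zfp36l1, 0.55 for Btg1 and 0.71 for Btg2, while Zfp36l2 at −0.21 was no longer called (adjusted p = 0.188 by edgeR). The 4 genes that did not pass the test changed sign with it.

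Btg2 and Zfp36 are known as genes that respond to signals within minutes to hours, so their promoters were searched on both strands in the 250 bases upstream of RefSeq starts (build GRCm38.p6). A promoter was matched for 8 of the 9 members, all but Zfp36l2, in 11 windows. The cAMP response element TGACGTCA was found in 1.55% of all 32851 promoters and, of the members, in Btg2 alone, at −166 to −159 relative to the start. The CArG box, the element of serum response factor, was found in 1.47% of promoters and, of the members, in Zfp36 alone, at −58 to −49. These 2 windows are shown because they carry the rarest motifs found, with all motif matches in capitals. In Btg2 (chr1:134079156-134079405, minus strand) the capitals mark CCAAT boxes, the cAMP response element and GC boxes, of which 2 overlap by a base. In Zfp36 (chr7:28379229-28379478, minus strand) they mark a GC box on the reverse strand and the CArG box that begins on its last base:
Btg2: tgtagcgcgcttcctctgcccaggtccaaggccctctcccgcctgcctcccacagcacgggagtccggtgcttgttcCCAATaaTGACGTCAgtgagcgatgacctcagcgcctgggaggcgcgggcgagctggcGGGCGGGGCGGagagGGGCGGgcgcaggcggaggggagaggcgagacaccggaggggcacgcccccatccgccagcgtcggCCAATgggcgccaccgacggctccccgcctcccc
Zfp36: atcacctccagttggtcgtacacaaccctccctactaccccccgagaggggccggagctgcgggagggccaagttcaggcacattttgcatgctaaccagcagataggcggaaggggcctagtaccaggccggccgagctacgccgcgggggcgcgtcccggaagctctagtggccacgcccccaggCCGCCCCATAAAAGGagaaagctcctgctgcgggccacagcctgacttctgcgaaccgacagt

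The common promoter elements were spread over the members. The CCAAT box (CCAAT) occurred in 5 of the 8 matched members and in 33.8% of all promoters, the GC box (GGGCGG) in 7 and in 32.7%, and the TATA box (TATAAA) in 3 (Zfp36l1, Btg1 and Tob1) and in 12.4%. The decamer of the p53 response element was found in 7.13% of promoters and in 0 of the 8 matched members, which says only that these letters are not in these windows.

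The other genes of the pathway moved by varied amounts. Of 18 further recruiters, 17 were tested, 2 rose and 2 fell, with a median log2 fold change of 0.09. Over all tested genes 15.0% rose and 14.7% fell, and the counts of each list below stand beside these shares. Counts with library totals stand instead beside 3989 genes higher and 1567 lower of 18144. Those with upper-quartile scaling stand beside 2918 higher and 2430 lower. Cpeb2, a cytoplasmic polyadenylation element binding protein, was at 2.95 and 3.51 CPM in siNT and at 7.25 and 9.52 CPM in siCnot1. This was the largest rise of the list, at 1.38 (SE 0.201, adjusted p = 1.52e-05 by edgeR). Samd4b, a Smaug family repressor, went from 105 and 106 CPM to 85.3 and 84.6 CPM (−0.31, adjusted p = 6.31e-04 by edgeR), without overlap. Cpeb4 fell by 0.31 on the log2 scale (adjusted p = 0.0402) and Tnrc6a, the microRNA pathway scaffold that binds CNOT1, rose by 0.19 (adjusted p = 0.0213), both by edgeR. Nanos2 had too few counts for the test. With library totals, 5 of the 17 rose and 1 fell.

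Of the 11 CCR4-NOT subunit genes, 3 fell, the targeted Cnot1 among them, and 0 rose, with a median of −0.14. By unadjusted p under 0.05, 0 of them rose as well, since the values of all 11 were below 0 (8 of 11 with library totals). Besides the targeted Cnot1, the nuclease gene Cnot6l fell from 45.5 and 48.01 CPM to 35.3 and 39.3 (−0.33, adjusted p = 0.00756 by edgeR), and Cnot10 from 149 and 147 CPM to 130 and 131 (−0.19, adjusted p = 0.0186 by edgeR). Cnot3, at −0.16, had an adjusted p of 0.0683. With library totals only Cnot1 was called.

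**Figure D5:**
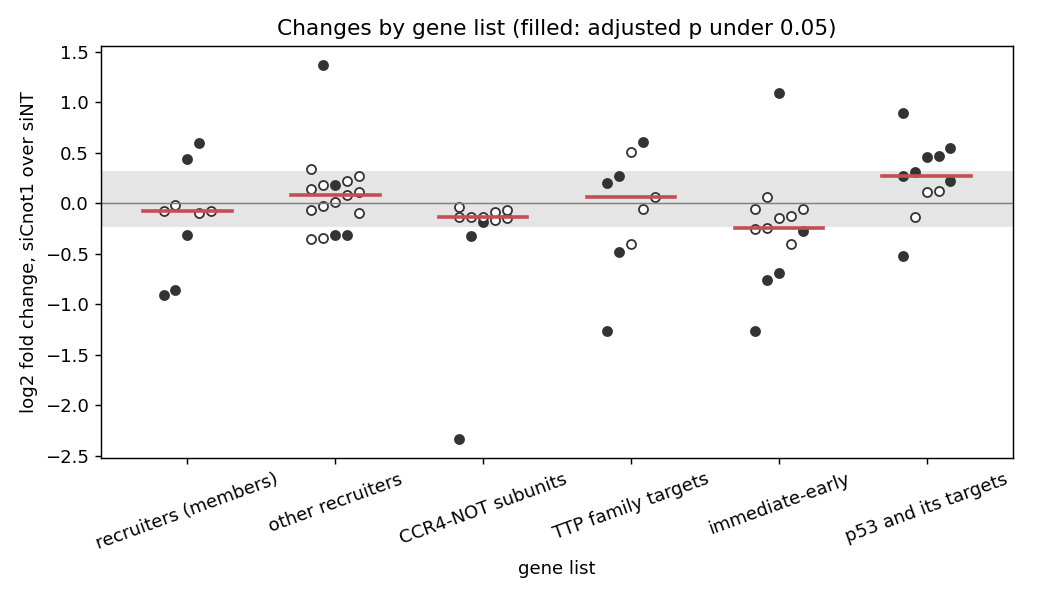
Log2 fold change (siCnot1 minus siNT) of every tested gene in each fixed list, 1 point per gene and filled where the adjusted p was under 0.05. The red line is the median and the band spans the 25th to 75th percentile of all genes, −0.22 to 0.31. The CCR4-NOT subunits lie below 0 in all 11 cases (in 8 with library totals). In the p53 list 7 of 11 genes were called higher, against 15.0% of all tested genes. The lists were chosen with earlier results of these data known and were not matched to all genes for level.

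Among 16 mRNAs known as targets of TTP proteins, 9 were tested, of which 3 rose and 2 fell (median 0.06). Tnf, Csf2, Il6, Il10, Cxcl1, Cxcl2 and Ccl2, the cytokine mRNAs for which the family is best known, had too few counts for the test in these cells. Ier3, a stress-response gene, was at 13.0 and 6.66 CPM in siNT and at 3.79 and 4.42 CPM in siCnot1 (−1.26, SE 0.231, adjusted p = 2.05e-04 by edgeR). Its 2 controls differed by more than the lower of them differed from the knockdown libraries. Vegfa fell by 0.48 on the log2 scale (adjusted p = 9.18e-04) and Plk3 rose by 0.28 (adjusted p = 0.0142), both by edgeR.

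Zfp36 belongs to the immediate-early genes, and of 17 others, 13 were tested, 1 rose and 4 fell (median −0.24). This list shares Ier3, Myc, Fos and Dusp1 with the TTP targets. Junb, a subunit of the AP-1 transcription factor, went from 29.7 and 25.6 CPM to 16.5 and 16.3 (−0.75, SE 0.11, adjusted p = 1.39e-05 by edgeR). Ier2 fell by 0.27 on the log2 scale (adjusted p = 0.00310 by edgeR). Atf3, a stress-induced repressor, was at 1.09 and 1.28 CPM in siNT and at 2.77 and 2.30 CPM in siCnot1 (1.10, adjusted p = 0.0122 by edgeR). Fosb, Fosl1, Egr2 and Egr3 had too few counts. With upper-quartile scaling 3 fell, and with library totals 2.

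Btg2 is also a p53 target, and of 11 genes, p53 targets and Trp53 itself, 7 rose and 1 fell (median 0.27). Plk2 had the largest rise, from 42.9 and 49.4 CPM to 88.3 and 83.0 CPM (0.89, SE 0.0799, adjusted p = 1.78e-08 by edgeR). Mdm2, the ubiquitin ligase that limits p53, went from 182 and 194 CPM to 290 and 259 CPM (0.55, adjusted p = 6.27e-07 by edgeR). Trp53inp1 rose by 0.47 (adjusted p = 5.51e-06) and Phlda3 by 0.46 (adjusted p = 1.15e-04), both by edgeR. Gadd45a, which the name of the list would place with these, fell by 0.52 (adjusted p = 2.21e-04 by edgeR). Trp53 was not called, at −0.13 (adjusted p = 0.0785). With library totals 9 of the 11 rose.

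Genes were also grouped by the elements in their own 3′ UTRs, over the 13944 tested genes that had one. With 0 TTP nonamers (12829 genes) 17.1% were called higher and 16.8% lower, and with 1 nonamer (848 genes) 23.6% were higher and 12% lower. With 2 or more (267 genes) the shares were 20.2% and 13.9%. The TTP family mRNAs have 1 nonamer each and are themselves part of the group with 1 nonamer. They were called lower, though for Zfp36l2 the call held in 5 of 12 alternatives. Whether the nonamer had a part in their change was not tested. In 3′ UTRs longer than 1500 bases, the median log2 fold change was 0.04 with 0 nonamers and 0.09 with 1, and the share called higher was 20.2% and 25.2%. With 2 or more nonamers in these long 3′ UTRs, 22.2% were higher, and the share called lower was 16.8% against 16.3% with 0. In 3′ UTRs above 500 and up to 1500 bases, the share called higher was 17.3% with 0 nonamers, 20.6% with 1 and 16% with 2 or more (75 genes), and the share called lower was 16%, 13.3% and 6.67%. The shares did not follow the number of nonamers in a single order. For the Pumilio element, medians were 0.02 with 0, 0.03 with 1 and 0.03 with 2 or more sites. The share called higher was 16.6%, 20.5% and 19.5%, and the share called lower 16.7%, 16.0% and 15.1%. In 3′ UTRs above 500 and up to 1500 bases, 17.1%, 18.3% and 20.9% were higher. In those longer than 1500 bases, 20.3%, 22.6% and 19.4% were higher. These values are a description, with no test, and the base composition of the 3′ UTRs was not matched.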

How the data were processed

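RNA-seq was available for 4 libraries, 2 of siNT and 2 of siCnot1. Per the labels and the study's methods, the authors built dUTP-marked libraries, sequenced them as read pairs, trimmed with fastp 0.19.4, aligned with HISAT2 2.2.1 (the submitters' notes name mm10) and tested with DESeq2 1.40.2. They deposited 1 table of raw counts per gene with gene positions and lengths. The counter and its strand setting are not given in the sources used here. Of 48902 genes matched by symbol, 1067 lay at their GRCm38.p6 position, so gene positions in the text are those of the table, which appear to be of a later build (GRCm39), and sequence positions are GRCm38. The files did not allow this to be checked further.

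Counts were filtered with filterByExpr (minimum count 10), scaled by TMM and tested by edgeR 4.0.16 (quasi-likelihood, R 4.3.3), with Benjamini-Hochberg adjustment over 18144 genes and calls at an adjusted p under 0.05. The script was tested on simulated counts. Normalized CPM use TMM, marker sums library totals, and RPKM the listed lengths. Family sums were added as 2 rows in a separate fit. Some genes and sites, and a planned sum that held one, are not reported here. DESeq2 1.42.0, limma 3.58.1 (voom), other scalings and filters, the replicate block and leaving out each library were alternatives. The 2 libraries of a group were described by the study as independent biological replicates. The members and lists were chosen with earlier results of these data known. Named were all members, Cnot1, close paralogs and, per list, up to 4 genes of smallest adjusted p and the untested ones; Cnot3, Trp53, Gadd45a and Lum were named after their values were seen. The limit set by 3 counts covers counting error only.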

Additional observations from a re-analysis of the deposited data

How the results depend on the processing

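Zfp36 (−0.94 to −0.80), Zfp36l1 (−0.93 to −0.75), Btg2 (0.54 to 0.71) and the TTP family sum (−0.81 to −0.63) kept direction and call in all 12 alternatives. Zfp36l2 was not called with upper-quartile scaling (−0.30), library totals (−0.21), no filter on low counts (−0.32) or DESeq2 (−0.32). Leaving out 1 library gave −0.57 to −0.11 for Zfp36l2, 0.40 to 0.48 for Btg1, 0.11 to 0.23 for the BTG/TOB sum, −0.17 to −0.02 for Btg3, −0.16 to 0.0041 for Tob1, −0.19 to 0.024 for Tob2 and −0.089 to 0.053 for Pum2, with 1 to 2 members higher and 2 to 3 lower. Genes not called changed sign with library totals (Btg3 0.013, Tob1 0.028, Tob2 0.030, Pum2 0.090), and Pum2 with upper-quartile scaling (0.0030). Without the filter the BTG/TOB sum was 0.17 with an adjusted p of 0.132. The cause was not tested.

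Calls within the lists fell with library totals to 1 for CCR4-NOT subunits and 3 for immediate-early genes. Over all genes that scaling gave 3989 higher and 1567 lower. Without the filter they fell to 2 for other recruiters, 1 for the subunits, 1 for TTP targets and 2 for immediate-early genes. Leaving out 1 library left 2 other recruiters, 1 to 2 subunits, 0 to 2 TTP targets, 1 to 3 immediate-early genes and 5 to 6 genes of the p53 list. Over all genes, leaving out 1 library left 743 to 1444 genes higher and 871 to 1469 lower, where all 4 gave 2719 and 2668, and testing without the filter left 1303 and 1450. In these fits the lone library of a group is assumed to vary like the other group.

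With the replicate block, Zfp36l2 was at −0.33 (adjusted p = 0.0323 by edgeR), and 2524 genes were higher and 2431 lower. It changed no call among the members. Deviations of same-numbered libraries correlated at 0.011 over 18144 genes, so no shared deviation was seen. This value cannot tell whether same-numbered libraries were handled together, which the labels do not state. With 2 libraries per group, changes of the size seen in Tob2 or Btg3 could not be told from 0.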
